A study of Homo sapiens with 18 samples.

Results

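*PAX3*, *FOXO1* and 8 further genes that are known as core regulators or targets of the PAX3-FOXO1 fusion protein (*MYOD1*, *MYOG*, *MYCN*, *FGFR4*, *ALK*, *TFAP2B*, *PIPOX* and *SOX8*) were followed through 18 RNA libraries. The genes were chosen by name, with earlier results of these data known. All 10 were found by Ensembl identifier among the 57500 genes of the count tables. The libraries come from 2 established human cancer cell lines, Rh30, labelled rhabdomyosarcoma, and ES8, labelled Ewing sarcoma. All cells carried dCas9-KRAB, a catalytically dead Cas9 fused to a transcriptional repressor, so that an sgRNA silences the gene it is directed to (CRISPRi). Parental cells of each line received a non-targeting sgRNA (sgCTL) or an sgRNA against the 5′UTR of *DNAJC17* (sgDNAJC17), a gene for a chaperone of the J-domain family. A further set of cells, called ΔRRM here, stably carried a 3xFLAG-tagged DNAJC17 cDNA that lacks the C-terminal RNA recognition motif and also received sgDNAJC17. Each of the 6 groups had 3 replicates, A, B and C, from cells that the study's methods describe as plated in triplicate. They are not stated to come from separate transductions, so p-values measure the spread between these libraries, which may be technical. All cells were transduced with lentivirus and kept in puromycin for 72 hours. By the study's methods, the vector of the DNAJC17 alleles was selected with hygromycin, which parental cells are not stated to have received. No ΔRRM cells with sgCTL were analysed here, so the ΔRRM libraries differ from sgCTL in the sgRNA and in the transgene with its own transduction and selection. From parental sgDNAJC17 cells they differ in the transgene together with that transduction and selection. No line other than these was analysed, so a difference between Rh30 and ES8 is between these lines, not between tumour types.

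Library totals ran from 35342393 to 48245989 counts. *DNAJC17* held 461 to 625 counts in the 6 sgCTL libraries, 59 to 113 counts in the 6 parental sgDNAJC17 libraries and 9849 to 14449 counts in the 6 ΔRRM libraries, which matches the labels. All 7 Ewing sarcoma markers were lower in Rh30 than in ES8, with a summed level of 461 to 481 CPM (counts scaled to library size) in ES8 sgCTL and 0.0686 to 0.165 CPM in Rh30 sgCTL. Of 7 skeletal muscle markers, 6 were higher in Rh30, with a summed level of 3128 to 3140 CPM in Rh30 sgCTL and 1.70 to 2.32 CPM in ES8 sgCTL. Library C of ES8 ΔRRM stood apart in these markers, with 94 counts of *ACTC1*, 25 of *CHRNA1* and 78 of *DES*, genes of muscle fibres, where libraries A and B held 0, 0 and 20 to 25. Results on *MYOD1* and *MYOG* that rest on this library are given with and without it. The summed level of 6 epithelial markers was 1.13 to 1.55 CPM in Rh30 sgCTL, 12.14 to 17.98 CPM in Rh30 sgDNAJC17 and 13.3 to 15.6 CPM in Rh30 ΔRRM. All 4 of them that were tested passed as higher in both comparisons with sgCTL. Beside this, 16.1% of all genes tested passed as higher with sgDNAJC17 and 33.8% in ΔRRM cells. The part of these markers in the results below was not tested. Markers of blood and endothelium summed to at most 0.765 CPM in any library.

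In alveolar rhabdomyosarcoma a chromosomal translocation joins the DNA-binding part of PAX3, a paired-box factor of the embryonic muscle lineage, to the activating part of the forkhead factor FOXO1. The fusion protein binds enhancers together with the muscle factors MYOD1 and MYOG and the MYC-family factor MYCN, and drives genes such as *FGFR4*, *ALK*, *TFAP2B*, *PIPOX* and *SOX8* as well as *MYOD1*, *MYOG* and *MYCN* themselves. In normal muscle, MYOD1 commits a cell to the lineage and MYOG takes it into differentiation. Counts per gene add up reads of the fusion transcript and of the intact *PAX3* and *FOXO1* transcripts, so the fusion itself is not measured here.

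Promoter sequences from RefSeq (GRCh38.p14, 250 bases before to 50 after the start) were matched by symbol for 8 of the 10 genes, all but *MYOD1* and *SOX8*, with 10 promoters in all. They were searched on both strands for 6 short motifs, which gave 7 matches, all in promoters of *MYOG*, *ALK* and *FGFR4*. The 3 shown are those of *MYOG*, the muscle gene among them, and 1 of *ALK* with the E-box that muscle factors favour, with the motif in capitals and its flanks in lower case. The first sequence holds the letters TATATTTA, the core of a site for MEF2 factors, and lies at chr1:203086061-203086084 on the minus strand. The second holds CAGTTG, a form of the E-box that basic helix-loop-helix factors such as MYOD1 bind, at chr1:203086012-203086033 on the minus strand. The third holds CAGCTG, at chr2:29921599-29921620 on the minus strand.
MYOG promoter, MEF2 core: gcgttggcTATATTTAtctctggt
MYOG promoter, E-box: gcacccagCAGTTGgcgtgagg
ALK promoter, E-box: ggctcagcCAGCTGcaagtggc
The MEF2 core is rare, in 1.24% of 35116 promoters of the same length. The E-box CAGTTG is in 11.4% of them and in those of *MYOG* and *FGFR4*, and CAGCTG is in 17.9% and in that of *ALK*. The E-box CACGTG, which MYC proteins bind, is in 7.26% of promoters and in a promoter of *ALK* and of *FGFR4*. The forkhead letters TGTTTAC (3.42% of promoters) and the paired-domain letters GTCACG (9.02%) are in none of the 10 windows, which says only that these letters are not in them.

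Levels were compared between genes per length, as RPKM (reads per kilobase of exon, scaled to library size). In Rh30 sgCTL the order ran from *MYOD1*, at 559 ± 18.9 RPKM (SD, n = 3), through *FGFR4* at 108 ± 3.90 RPKM and *MYOG* at 79.0 ± 3.69 RPKM, to *PIPOX* at 18.3 ± 0.172 RPKM and *SOX8* at 12.7 ± 0.0889 RPKM (SD, n = 3 each). *PAX3*, *MYCN* and *FOXO1* stood much lower, at 3.88 ± 0.399, 2.26 ± 0.0420 and 1.98 ± 0.123 RPKM (SD, n = 3). *ALK* was near the limit, at 0.304 ± 0.0509 RPKM (SD, n = 3), and *TFAP2B* had 0 counts in all 9 Rh30 libraries. No neighbours in this order had overlapping libraries. The 10 genes were thus not all higher in the line labelled rhabdomyosarcoma: *TFAP2B* was not detected there, where 0 counts allow up to 3 counts per library, and *PAX3* and *MYCN* stood higher in ES8. In ES8 sgCTL the order was led by *FGFR4*, at 19.1 ± 0.285 RPKM (SD, n = 3), then *PAX3* at 5.44 ± 0.120, *MYCN* at 5.05 ± 0.574 and *SOX8* at 4.32 ± 0.101 RPKM (SD, n = 3 each). *FOXO1* and *TFAP2B* followed in ES8 at 1.16 ± 0.0858 and 1.05 ± 0.121 RPKM (SD, n = 3). *PIPOX*, *MYOD1* and *ALK* were below 1 RPKM in ES8 sgCTL, at 0.329 ± 0.0525, 0.298 ± 0.0686 and 0.142 ± 0.0274 RPKM (SD, n = 3), and *MYOG* had 0 counts. The libraries of *PAX3* and *MYCN*, of *FOXO1* and *TFAP2B*, and of *PIPOX* and *MYOD1* overlapped in ES8, so these neighbours are not ordered. In all, 8 members lay over 1 RPKM in Rh30 sgCTL and 6 in ES8 sgCTL.

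**Figure D1:**
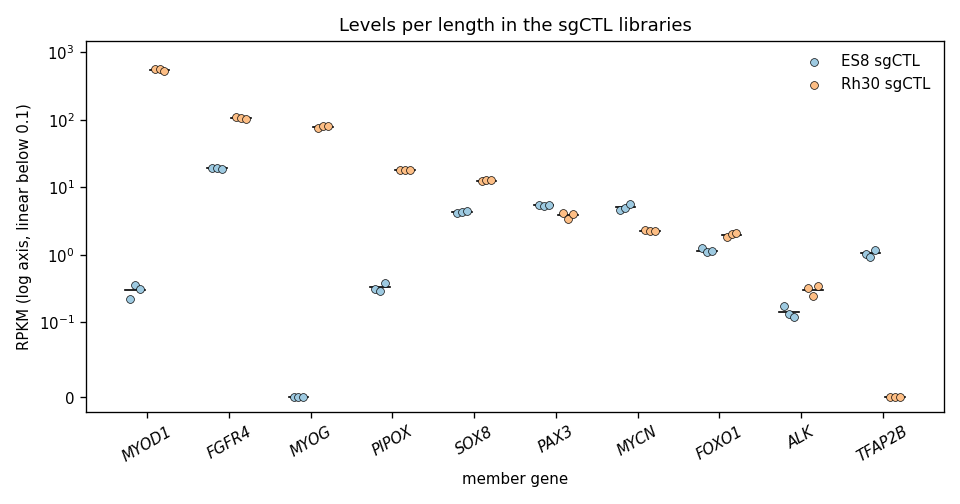
Level per length (RPKM, log axis that turns linear below 0.1) of the 10 genes in the 3 sgCTL libraries of ES8 (blue) and of Rh30 (orange), with a bar at each mean. *MYOD1* sits near 559 RPKM in Rh30 and 0.298 in ES8, *MYOG* is at 0 in ES8, *TFAP2B* is at 0 in Rh30, and *PAX3* and *MYCN* are higher in ES8.

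The first comparison set Rh30 sgCTL against ES8 sgCTL, the baseline of the lines. All 10 members passed the test, at an adjusted p under 0.05 by edgeR's quasi-likelihood test over all genes, as did 87.5% of the 17925 genes tested. At a fold of at least 2 as well, which is named a call from here on, 6 members were higher in Rh30 and 2 lower, beside 22.2% and 28.7% of all genes. The median log2 fold change of the members was 1.29, and it stayed at 1.29 with the 2 genes that are absent from a line set to their bound, beside -0.07 over all genes tested. Most genes pass in this comparison, so the members are described below by size.

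The muscle regulators were far higher in Rh30. *MYOD1* (chr11:17719568-17722131, plus strand, GRCh38 as in the files) had 41498, 45008 and 41159 counts in Rh30 sgCTL and 20, 30 and 29 counts in ES8 sgCTL, in the order A, B, C. The lines did not come near each other in any library, and the log2 fold change was 10.84 (SE 0.09, adjusted p = 1.91e-50). *MYOG* (chr1:203083132-203086036, minus strand), the differentiation factor with the MEF2 core shown above, had 4645, 5471 and 5219 counts in Rh30 sgCTL and 0, 0 and 0 in ES8 sgCTL. Against a floor of 3 counts in each ES8 library, *MYOG* was at least 1980-fold higher in Rh30.

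Among the metabolic and receptor genes, *PIPOX* (chr17:28950513-29057220, plus strand), which encodes an enzyme that oxidizes pipecolic acid and sarcosine, had 3024, 3210 and 3181 counts in Rh30 sgCTL and 63, 55 and 80 in ES8 sgCTL. It was 54.3-fold higher in Rh30 (log2 fold change 5.76, SE 0.09, adjusted p = 1.43e-41). *FGFR4* (chr5:177086886-177098144, plus strand), a fibroblast growth factor receptor, held 21930, 22735 and 21377 counts in Rh30 sgCTL and 4696, 4341 and 4616 in ES8 sgCTL. Both lines expressed it well, and Rh30 was 5.54-fold higher (log2 2.47, SE 0.05, adjusted p = 3.25e-37). *ALK* (chr2:29192774-29921566, minus strand), a receptor tyrosine kinase of the nervous system, had 90, 75 and 102 counts in Rh30 sgCTL and 60, 44 and 42 in ES8 sgCTL. It was low in both lines and 2.09-fold higher in Rh30 (log2 1.06, SE 0.21, adjusted p = 1.08e-05).

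*SOX8* (chr16:981808-986979, plus strand), a factor of the SOXE group known from satellite cells and neural crest, had 2259, 2465 and 2391 counts in Rh30 sgCTL and 941, 893 and 997 in ES8 sgCTL. The groups did not overlap, and Rh30 was 2.87-fold higher (log2 1.52, SE 0.06, adjusted p = 1.70e-26). *FOXO1* (chr13:40469953-40666597, minus strand), the 3′ partner of the fusion, held 467, 547 and 553 counts in Rh30 sgCTL and 392, 318 and 361 in ES8 sgCTL. Its log2 fold change of 0.74 (SE 0.09, adjusted p = 3.97e-10) passed the test without reaching 2-fold.

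The other members went the other way. *PAX3* (chr2:222199888-222298996, minus strand), the 5′ partner, had 790, 695 and 789 counts in Rh30 sgCTL and 1256, 1162 and 1311 in ES8 sgCTL, a log2 fold change of -0.52 (SE 0.07, adjusted p = 8.35e-09). The line labelled rhabdomyosarcoma thus held less of the *PAX3* gene's RNA than the line labelled Ewing sarcoma. *MYCN* (chr2:15940564-15947007, plus strand), a MYC-family factor, had 244, 254 and 248 counts in Rh30 sgCTL and 594, 600 and 750 in ES8 sgCTL, so that Rh30 was 2.28-fold lower (log2 -1.19, SE 0.09, adjusted p = 2.53e-15). *TFAP2B* (chr6:50818723-50847613, plus strand), a factor of the AP-2 family that serves as a stain for the fusion-positive tumour, had 319, 270 and 367 counts in ES8 sgCTL and 0 in every Rh30 library, so ES8 was at least 90.8-fold higher against a floor of 3 counts per library.

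The same differences were measured again in libraries that the first comparison did not use. Between the sgDNAJC17 libraries, 9 members passed the test, beside 83.1% of genes, and 4 were called higher and 2 lower, beside 22.7% and 30.5%. Between the ΔRRM libraries, 9 passed, beside 86.3%, and 5 were called higher and 3 lower, beside 25.9% and 32.7%. *MYOD1* had a log2 fold change of 10.85 in the sgDNAJC17 libraries and 9.23 in the ΔRRM libraries (SE 0.17 and 0.20), *PIPOX* 5.54 and 5.23, and *FGFR4* 2.26 and 1.96. These genes were called in all 3 sets of libraries. Adjusted for transcript GC content and exon length, *FGFR4* was 2.97, 3.07 and 3.04 in the sgCTL, sgDNAJC17 and ΔRRM libraries. *MYOG* was at least 1267-fold higher in Rh30 with sgDNAJC17, where ES8 again had 0 counts. ES8 ΔRRM held 30, 38 and 81 counts of *MYOD1* and 0, 3 and 6 of *MYOG*, the highest in library C, and without that library the *MYOD1* difference was 9.78. The *MYOG* difference between the ΔRRM libraries was 10.00 (SE 0.23) with library C and 10.94 without it. *TFAP2B* was at least 62.1-fold and at least 72.7-fold higher in ES8 in the sgDNAJC17 and ΔRRM libraries.

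*MYCN* was lower in Rh30 by a log2 fold change of -1.87 (SE 0.13) with sgDNAJC17 and -2.30 (SE 0.14) in ΔRRM cells, beside -1.19 at baseline. *PAX3* was lower in each set, by -0.37 (SE 0.11) and -1.0 (SE 0.09), and reached 2-fold in the ΔRRM libraries alone. Without ES8 sgDNAJC17 library C the former was -0.26 (adjusted p = 0.0636), and adjusted for transcript GC content and exon length the latter was -0.87. *SOX8* was higher in Rh30 in each set, by 0.32 (SE 0.11) and 1.16 (SE 0.09), but was no call with sgDNAJC17, and with libraries scaled by their totals alone that 0.32 became 0.12 (adjusted p = 0.322). With the GC and length adjustment it became 1.14 (adjusted p = 2.11e-11), a call, and the 1.16 of the ΔRRM libraries became 2.22. The *FOXO1* difference was 0.29 (SE 0.13, adjusted p = 0.0470) with sgDNAJC17 and -0.27 (SE 0.13, adjusted p = 0.0601) in ΔRRM cells. The former missed the threshold with DESeq2 (adjusted p = 0.0508), with library totals alone (0.09, adjusted p = 0.509) and without any of 4 of the 6 libraries, and with library totals alone the latter became -0.64 (adjusted p = 0.000289). *ALK* had 0.18 (SE 0.30, adjusted p = 0.592) with sgDNAJC17, which passed at 0.74 (adjusted p = 0.0260) after the GC and length adjustment. In ΔRRM cells *ALK* had 0.77 (SE 0.24, adjusted p = 0.00587), which was 0.40 (adjusted p = 0.112) with library totals alone and 1.59 (adjusted p = 5.38e-06) with the GC and length adjustment. The log2 fold change over all genes had a median of -0.11 with sgDNAJC17 and -0.12 in ΔRRM cells, and -0.31 and -0.49 with library totals alone.

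**Figure D2:**
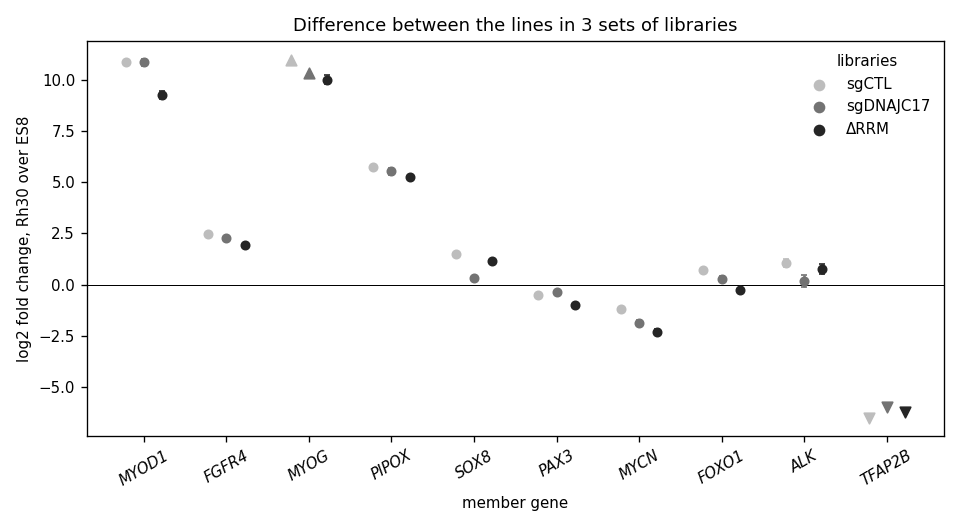
Log2 fold change of Rh30 over ES8 for each gene in the sgCTL, sgDNAJC17 and ΔRRM libraries, with the SE of the fit as bars; triangles are bounds where a line had 0 counts. *MYOD1*, *MYOG*, *PIPOX* and *FGFR4* are above 0 and *MYCN*, *PAX3* and *TFAP2B* below it in all 3 sets, and *FOXO1* goes from 0.74 to -0.27.

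Within Rh30, sgDNAJC17 was compared with sgCTL to see what the knockdown did to these genes. *TFAP2B* was not testable, and of the other 9 members 1 rose and 5 fell, beside 16.1% and 16.2% of the 15391 genes tested. Only *SOX8* was called, beside 1.55% of genes in either direction. The median log2 fold change of the 9 members was -0.33, beside 0.00 over all genes.

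*SOX8* had 55.6, 56.4 and 56.2 CPM with sgCTL and 25.1, 24.0 and 22.8 CPM with sgDNAJC17, in the order A, B, C. All knockdown libraries lay far below all control libraries, a 2.31-fold fall (log2 -1.21, SE 0.06, adjusted p = 5.13e-08). *FGFR4* had 540, 520.0 and 502 CPM with sgCTL and 355, 321 and 303 CPM with sgDNAJC17. It fell by 0.66 on the log2 scale (SE 0.06, adjusted p = 1.58e-05), again with no overlap. *MYCN* went from 6.01, 5.81 and 5.83 CPM to 3.48, 3.89 and 3.87 CPM, a fall of log2 -0.64 (SE 0.11, adjusted p = 0.00109). *MYOG* went from 114, 125 and 123 CPM to 96.6, 91.9 and 97.3 CPM. The fall was small and did not overlap (log2 -0.33, SE 0.06, adjusted p = 0.00148). *ALK* had 90, 75 and 102 counts with sgCTL and 52, 30 and 61 counts with sgDNAJC17 (log2 -0.80, SE 0.23, adjusted p = 0.0177), and adjusting for GC content and exon length took it to -0.61 (adjusted p = 0.0605), or to -0.63 (adjusted p = 0.0119) with the replicate block. Without control library C its adjusted p was 0.0729, and without knockdown library B it was 0.0831.

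*PAX3* was the member that rose. It had 19.5, 15.9 and 18.5 CPM with sgCTL and 21.9, 22.5 and 22.3 CPM with sgDNAJC17 (log2 0.32, SE 0.08, adjusted p = 0.00965), and without control library B, the lowest, the value was 0.24 (adjusted p = 0.0629). *FOXO1* had 11.5, 12.5 and 13.0 CPM with sgCTL and 12.2, 11.8 and 9.58 CPM with sgDNAJC17 and did not pass (log2 -0.13, SE 0.10, adjusted p = 0.365). *MYOD1* had 1022, 1029 and 967 CPM with sgCTL and 949, 930 and 861 CPM with sgDNAJC17. Its log2 fold change of -0.12 (SE 0.06) had an adjusted p of 0.132. With the replicate letter as a block, given since same-lettered libraries of these groups had correlated deviations, the adjusted p was 0.000809 at the same value of -0.12. With library totals alone it was -0.19 (adjusted p = 0.0245), and with the block and the GC content and length correction together -0.04 (adjusted p = 0.159). *PIPOX* had 74.5, 73.4 and 74.8 CPM with sgCTL and 72.4, 72.6 and 73.5 CPM with sgDNAJC17, a log2 fold change of -0.01 (SE 0.06, adjusted p = 0.903).

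**Figure D3:**
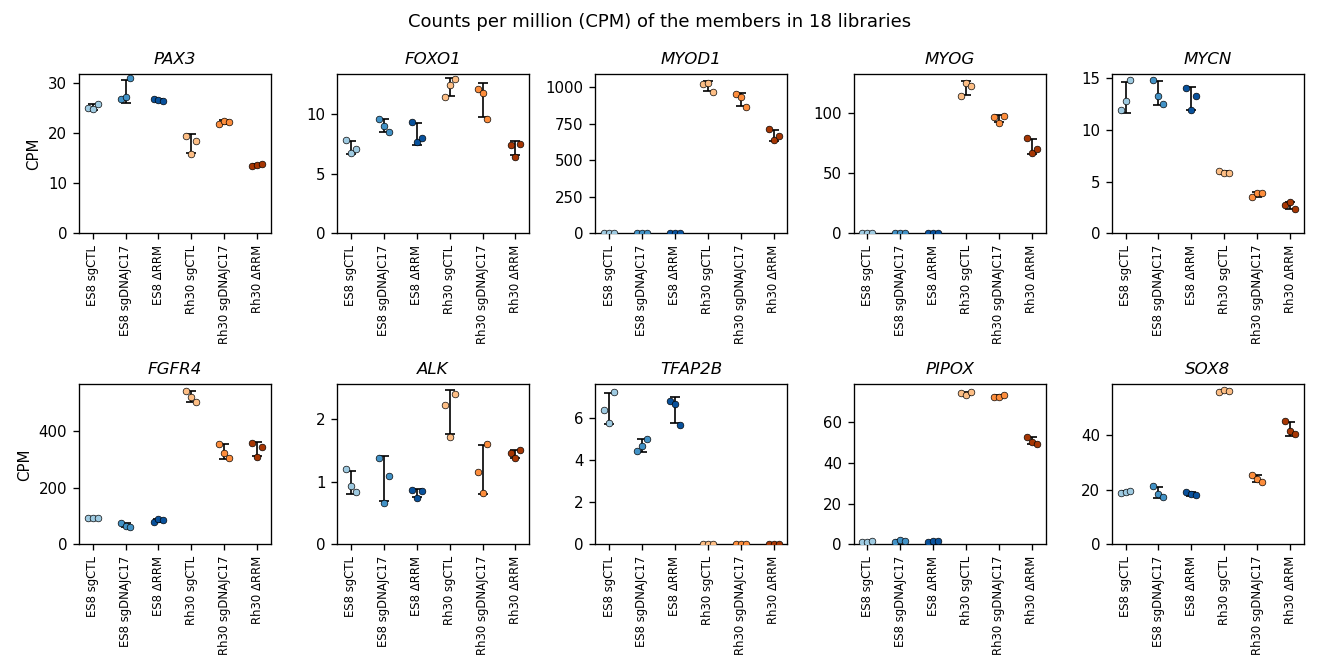
CPM of each gene in the 18 libraries by group, on linear axes from 0, with the mean and SD (n = 3) in black. In Rh30, *SOX8* goes from 55.6 to 56.4 CPM with sgCTL down to 22.8 to 25.1 CPM with sgDNAJC17 and stands at 40.4 to 45.1 CPM in ΔRRM cells, while *PIPOX* differs little between sgCTL and sgDNAJC17.

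Rh30 ΔRRM cells were next set against Rh30 sgCTL. All 9 testable members fell, where 35.0% of the 15442 genes tested fell and 33.8% rose. *MYCN* alone was called, beside 9.97% of genes. The median log2 fold change of the members was -0.55, beside -0.01 over all genes, and library totals alone moved the median of all genes to -0.25. ΔRRM cells and knockdown cells share these sgCTL libraries, so the 2 sets of changes are not independent of each other.

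*MYCN* had 2.76, 3.02 and 2.32 CPM in ΔRRM cells, below every sgCTL library (log2 -1.07, SE 0.14, adjusted p = 4.72e-10). Without ΔRRM library C, the lowest, no member reached a 2-fold change. *FOXO1* had 7.47, 6.46 and 7.54 CPM in ΔRRM cells, a log2 fold change of -0.75 (SE 0.10, adjusted p = 1.44e-09). *MYOG* fell to 79.5, 66.9 and 70.1 CPM (log2 -0.71, SE 0.07, adjusted p = 7.58e-15) and *MYOD1* to 712, 637 and 664 CPM (log2 -0.55, SE 0.07, adjusted p = 8.71e-11). Both muscle factors thus stood lower in ΔRRM cells than in any sgCTL or sgDNAJC17 library of Rh30. *PIPOX*, which did not pass in the knockdown, fell to 52.7, 50.5 and 49.3 CPM (log2 -0.51, SE 0.06, adjusted p = 1.99e-10). *PAX3* fell to 13.5, 13.7 and 13.9 CPM (log2 -0.36, SE 0.09, adjusted p = 0.000249), the reverse of its direction in the knockdown.

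The values of the receptors and of *SOX8* moved with the correction for GC content and exon length. *FGFR4* had 356, 308 and 344 CPM in ΔRRM cells (log2 -0.59, SE 0.07, adjusted p = 3.23e-12), *SOX8* 45.1, 41.2 and 40.4 CPM (log2 -0.37, SE 0.07, adjusted p = 1.35e-06) and *ALK* 1.45, 1.38 and 1.502 CPM (log2 -0.51, SE 0.21, adjusted p = 0.0251). Adjusted for GC content and exon length, the values were -0.17 (adjusted p = 0.00393) for *FGFR4*, 0.02 (adjusted p = 0.726) for *SOX8* and -0.05 (adjusted p = 0.831) for *ALK*. The longest transcripts of these genes have 63.4%, 63.8% and 57.9% G and C, and their exon lengths are 4829, 4432 and 6932 bases. *MYOD1*, at 65.6% and 1801 bases, moved only from -0.55 to -0.51, and *MYOG*, at 57.7% and 1528 bases, moved from -0.71 to -0.87. *FOXO1*, at 46.6% and 6232 bases, moved from -0.75 to -0.66. Which part of the correction moved a value was not tested. Without the correction *ALK* also missed the threshold with DESeq2 (adjusted p = 0.0542) and with all 18 libraries in the fit (adjusted p = 0.0531).

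**Figure D4:**
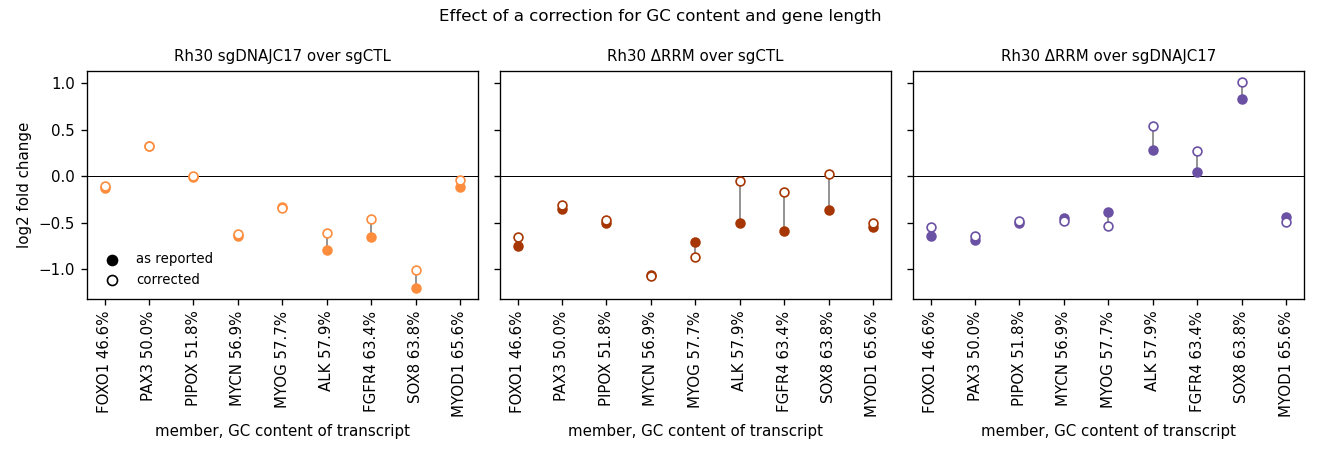
Log2 fold change of the 9 testable members in the 3 Rh30 comparisons, as reported (filled) and adjusted for GC content and exon length (open), with the members in order of the GC content of their longest transcript. *SOX8* against sgCTL in ΔRRM cells goes from -0.37 to 0.02 and *FGFR4* from -0.59 to -0.17, while *MYCN* stays at -1.07 to -1.08.

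ΔRRM cells were also compared with knockdown cells, both of which carry sgDNAJC17. *SOX8* rose and 6 members fell, beside 29.4% of the 15309 genes tested that rose and 30.5% that fell, and none was called, beside 7.79%. The tool was edgeR, by which 7 members also had an unadjusted p under 0.05, and DESeq2 called none either. The share of all genes at an unadjusted p under 0.05 is not given, here or for ES8 below. *SOX8* was 1.77-fold higher in ΔRRM cells than with the knockdown alone (log2 0.83, SE 0.09, adjusted p = 6.47e-14), and the GC and length correction took it to 1.02, a call. Its level in ΔRRM cells lay between those of the other Rh30 groups. *FGFR4* (log2 0.05, SE 0.08, adjusted p = 0.586) and *ALK* (log2 0.28, SE 0.25, adjusted p = 0.336) did not pass, and with the correction *FGFR4* passed at 0.27 (adjusted p = 0.000168), but with library totals alone its value was -0.11 (adjusted p = 0.189).

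The partners and muscle genes were lower in ΔRRM cells than in knockdown cells. *PAX3* had a log2 fold change of -0.69 (SE 0.10, adjusted p = 1.28e-09) and *FOXO1* -0.64 (SE 0.12, adjusted p = 1.48e-06). *MYOD1* fell by 0.44 on the log2 scale (SE 0.08, adjusted p = 2.20e-06) and *MYOG* by 0.39 (SE 0.08, adjusted p = 1.39e-05). *PIPOX* fell by 0.51 (SE 0.08, adjusted p = 4.37e-08). *MYCN* fell by 0.45 (SE 0.16, adjusted p = 0.0141), and without ΔRRM library C it was -0.37 (adjusted p = 0.0763).

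**Figure D5:**
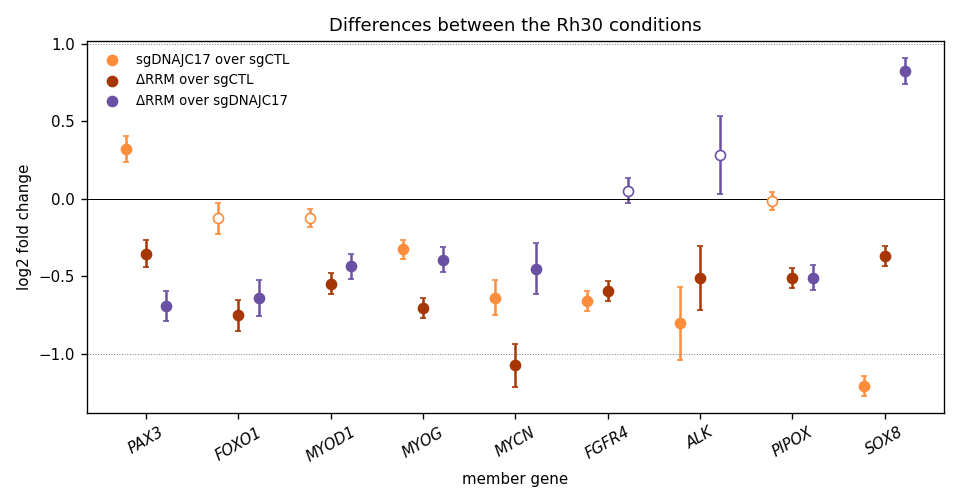
Log2 fold change (SE of the fit as bars) of the 9 testable members in the 3 comparisons of Rh30 conditions; filled points passed an adjusted p under 0.05, open points did not, and dotted lines mark 2-fold. *SOX8* at -1.21 with sgDNAJC17 and *MYCN* at -1.07 in ΔRRM cells are the points beyond a dotted line, and *PAX3* is above 0 with sgDNAJC17 and below 0 in ΔRRM cells.

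The same contrasts in ES8, where *MYOG* was not testable, changed fewer members. With sgDNAJC17, *FGFR4* and *TFAP2B* fell and *FOXO1* rose, beside 13.8% and 13.6% of the 17143 genes tested, and none of the 9 was called, beside 1.95% of genes, while 3 had an unadjusted p under 0.05 in edgeR and DESeq2 called none. *FGFR4* had 93.7, 92.5 and 90.9 CPM with sgCTL and 75.7, 64.3 and 61.8 CPM with sgDNAJC17 (log2 -0.48, SE 0.08, adjusted p = 0.00223). *TFAP2B*, seen in ES8 alone, had 6.37, 5.75 and 7.23 CPM with sgCTL and 4.41, 4.67 and 5.02 CPM with sgDNAJC17 (log2 -0.48, SE 0.12, adjusted p = 0.0135), and without control library C the value was -0.39 (adjusted p = 0.0687). The *FOXO1* rise of 0.30 (SE 0.10, adjusted p = 0.0483) was at the threshold and missed it with DESeq2 (adjusted p = 0.0531), library totals alone (0.0776), no filter on low counts (0.0795) and the block (0.0717), and without any of 5 of the 6 libraries. *SOX8* had 18.8, 19.0 and 19.6 CPM with sgCTL and 21.4, 18.2 and 17.4 CPM with sgDNAJC17, overlapping groups (log2 -0.03, SE 0.09, adjusted p = 0.821).

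In ES8 ΔRRM cells against ES8 sgCTL, none of 9 members passed, beside 0.174% of 17199 genes, or 0.0349% with a 2-fold change. By edgeR, 2 members had an unadjusted p under 0.05, *MYOD1* (0.0180) and *FGFR4* (0.0470), and DESeq2 called none. The *MYOD1* log2 fold change of 1.00 (SE 0.37, adjusted p = 0.306) came to 0.45 (adjusted p = 0.546) without library C, and with no filter on low counts it passed at 1.00 (adjusted p = 0.0249).

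Whether the lines differed in their response was tested with an interaction term, Rh30 minus ES8. After the knockdown, 2 of the 8 members with counts in all 4 groups differed, beside 9.78% of the 18899 genes tested. *SOX8* fell more in Rh30, with a difference of -1.15 on the log2 scale (SE 0.12, adjusted p = 8.92e-06), and so did *MYCN* (-0.63, SE 0.16, adjusted p = 0.0171), which missed the threshold without ES8 control library A (-0.55, adjusted p = 0.0598). The *FGFR4* response, a fall in both lines, gave a difference of -0.16 (SE 0.11, adjusted p = 0.421). For ΔRRM against sgCTL, 7 of the 8 differed, beside 41.4% of the 18854 genes tested, in either direction. All 7 differed toward a lower value in Rh30, and the share of all genes that did so is not given. The differences were -1.55 (SE 0.29) for *MYOD1*, -1.05 (SE 0.16) for *MYCN*, -0.95 (SE 0.15) for *FOXO1*, -0.47 (SE 0.18) for *PIPOX*, -0.45 (SE 0.09) for *FGFR4*, -0.43 (SE 0.11) for *PAX3* and -0.31 (SE 0.09) for *SOX8*. That of *MYOD1* rests on ES8 counts of 20 to 81 and was -1.0 (adjusted p = 0.00146) without ES8 ΔRRM library C. Those of *FGFR4* and *SOX8* became 0.02 and 0.14 (adjusted p = 0.872 and 0.257) with the GC and length correction, and *PIPOX* missed the threshold there (-0.39, adjusted p = 0.0697), in the fit of all 18 libraries (-0.52, adjusted p = 0.0629) and without any of 8 of the 12 libraries. For *MYOG* and *TFAP2B*, which had 0 counts in whole groups, no interaction value is given.

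Over the 9 Rh30 libraries the members did not move as a block. The log2 CPM of *MYOD1* had a Pearson correlation of 0.97 with *FOXO1*, 0.96 with *PIPOX* and 0.94 with *MYOG*, and of 0.06 with *SOX8*. *SOX8* went with *FGFR4* (0.78) and *ALK* (0.75) and against *PAX3* (-0.59). These are descriptions over 9 libraries that fall into 3 groups. Outside the members, the gene with the pattern most like each was *MAMSTR* for *SOX8* (r = 0.998), a cofactor of MEF2 factors, *MEF2C* for *PIPOX* (0.99), *MCM5* for *MYOD1* (0.996), a replication helicase subunit, *WNT5A* for *MYOG* (0.99), *LRP3* for *FOXO1* (0.99), *AP3B1* for *MYCN* (0.98), *SLC25A23* for *FGFR4* (0.99), *COL19A1* for *ALK* (0.93) and ENSG00000272540 for *PAX3* (0.98), each the highest of 11374 genes with a mean of at least 100 counts.

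Some exons of the members are shared with neighbours, and the strand setting of the counting is not given in the sources used here. *FOXO1* shares 269 bases (4.32% of its exon bases) with *LINC00598* on the same strand, and *LINC00598* had at most 12 counts in any library. *MYCN* shares 98 bases (3.77%) with the antisense *MYCNOS*, which had at most 36 counts. *PIPOX* shares 170 bases (4.19%) with *PHF12* on the other strand, which had 900 to 2947 counts, and 36 bases with ENSG00000263613. *PIPOX* itself had 35 to 80 counts in the ES8 libraries, and the share of *PHF12* reads among them was not tested.

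Relatives of the members were counted in the same comparisons. Values of single genes of these lists are from the main setting only and were not followed through the alternatives. Between the sgCTL libraries these counts stand beside 87.5% of all genes that passed, 22.2% called higher and 28.7% called lower, and a median of -0.07. In Rh30 sgCTL against ES8 sgCTL, 3 of the 10 tested PAX and FOXO relatives were higher and 7 lower, with a median log2 fold change of -1.14. *FOXO6* (1.59) and *FOXO3* (1.15) were called higher, while *PAX7*, the partner in the other known rhabdomyosarcoma fusion, had 5128 counts over the 3 ES8 libraries and 1 over the 3 Rh30 libraries. *PAX9* had 2150 counts in ES8 and 1 in Rh30, and *PAX1* 1198 in ES8 and 0 in Rh30. Of 14 myogenic regulators, 8 were higher and 6 lower (median 1.74). *MYF5*, the early muscle factor, was at least 252-fold and *DMRT2* at least 102-fold higher, from 0 counts in ES8, and *EYA2* had 43 counts in Rh30 and 2 in ES8. *ID2* (-2.62), an inhibitor of helix-loop-helix factors, and their partner *TCF3* (-1.73) were called lower.

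Of 23 tested genes named as other PAX3-FOXO1 targets, 13 were higher and 10 lower (median 1.46). *NOS1* had 4978 counts in Rh30 and 1 in ES8, *GREM1* was higher by 8.87 and *PRDM12* by 7.83 on the log2 scale. *DCX* had 0 counts in Rh30 and was at least 66.3-fold higher in ES8, and *NELL1* (-6.17) and *FOXF1* (-5.90) were lower in Rh30. Of 13 cofactors and kinases, 3 were higher and 9 lower (median -0.39), with *CDK4* (4.47) and *AKT1* (1.13) called higher and the acetyltransferases *EP300* (-1.95) and *CREBBP* (-1.19) and the remodeller *SMARCA4* (-1.33) called lower. Of 7 tested receptor relatives and ligands 1 was higher, *FGF8* (2.27), and 6 were lower (median -4.60, or -4.30 with genes at 0 set to their bound). *FGFR2* had 4050 counts in ES8 and 4 in Rh30, *FGF19* 566 and 1, and the ALK ligand *ALKAL2* 207 and 0. Among 7 MYC, SOXE and TFAP2 relatives 3 were higher and 4 lower (median -2.40), with *MYCL* at 2.56, *TFAP2A* at -2.84, *SOX9* at -2.43 and *TFAP2C* at 70 counts in ES8 and 1 in Rh30.

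In Rh30 with sgDNAJC17, 11 of the 18 tested other PAX3-FOXO1 targets fell and 1 rose (median -0.30), beside 16.1% of all genes that rose, 16.2% that fell and a median of 0.00, of which *NOS1* (-0.94) and *NRCAM* (-0.63) fell most and *GREM1* (0.42) rose. Of 14 myogenic regulators 3 rose and 5 fell, with *MYF5* at 0.56 and *ID3* at 0.26, and *EYA1* at -0.56 and *MEF2A* at -0.31. The receptor *FGFR3* (-1.16) and its ligand *FGF8* (-0.96) fell with *FGFR4*, among 3 of 5 receptor relatives and ligands that fell. Of 7 PAX and FOXO relatives 3 fell, *PAX2* (-1.46, at 38 counts or fewer in Rh30) and *FOXO6* (-0.49) among them, and of 13 cofactors and kinases 5 fell, led by *EP300* (-0.48) and *AKT1* (-0.46). *SOX9*, a relative of *SOX8*, fell by 0.57 and *MAX*, the partner of MYC proteins, rose by 0.25, with 3 of 5 relatives in that list not passing.

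In Rh30 ΔRRM cells against sgCTL, 6 of 7 PAX and FOXO relatives fell (median -0.73), beside 35.0% of all genes that fell, 33.8% that rose and a median of -0.01, with *PAX5* at -2.20 (33 counts or fewer in Rh30) and *FOXO6* at -1.23. Of 14 myogenic regulators 7 fell, with *MEF2C* (-0.87) and *MEF2D* (-0.79), and 4 rose, with *ID2* (0.64) and *ID1* (0.55). Of 18 other PAX3-FOXO1 targets 12 fell, *KCNN3* (-0.89) and *DAPK1* (-0.66) the most, and 6 did not pass. Of 13 cofactors and kinases 9 fell, led by *CREBBP* (-0.91) and *SMARCA4* (-0.90), while the deacetylases *HDAC2* (0.44) and *HDAC1* (0.32) rose. Values with the GC content and length correction, which moved *SOX8*, *ALK* and *FGFR4* in this comparison, are not given for the genes of these lists. *LTK* (-0.79), a relative of *ALK*, and *FGFR1* (-0.72) fell and *FGF8* (0.24) rose, and *TFAP2A* (-0.64) and *SOX9* (-0.60) fell. Against knockdown cells, *EYA2* (1.27, at 23 counts or fewer in Rh30), *FGF8* (1.19), *ID2* (0.66), *ABAT* (0.53), *NOS1* (0.40), *HDAC1* (0.33) and *HDAC2* (0.31) rose in ΔRRM cells. In the same comparison *PAX5* (-1.70), *MEF2C* (-0.91), *FOXO6* (-0.76), *KDM4B* (-0.64), *MEF2D* (-0.55), *OLIG2* (-0.55), *TFAP2A* (-0.42), *MAX* (-0.38), *FGFR1* (-0.36) and *KCNN3* (-0.32) fell. Of the 7 muscle markers, 5 fell in ΔRRM cells against sgCTL, with *TNNT2* at -0.67 and *CHRND* at -0.60, and with sgDNAJC17 1 of 7 fell, *CHRND*, at -1.13.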

How the data were processed

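Poly-A RNA of 18 libraries was sequenced, and the authors deposited raw counts of reads per gene for each library. The submitters' processing notes name Trimmomatic 0.36, STAR 2.5.2b, featureCounts of Subread 1.5.2 and the build GRCh38. The study's methods name another build, but 85.4% of 18932 protein-coding starts in the files lay within 1000 bases of their place in GRCh38 and 4.0% in GRCh37. The strand setting is not given in the sources used here. Groups came from the sample labels. Symbols were matched by identifier for 55082 of 57500 genes.

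Counts were tested in R 4.3.3 with edgeR 4.0.16 (filterByExpr, TMM, quasi-likelihood F-test, Benjamini-Hochberg over all genes tested). Each fit held only the groups compared, and the interaction fits held 4 groups. A gene passed at an adjusted p under 0.05 and was called at a fold of at least 2 as well, except that interactions needed no fold. CPM and RPKM were computed from the counts on TMM library sizes. Library totals of 35342393 to 48245989 counts set the precision, and bounds rest on a floor of 3 counts per library, which covers counting error only. The tests were checked on simulated data. The members and lists were chosen with earlier results of these data known.

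The named genes were all members, up to 3 genes of each list called in each direction between the lines, up to 2 passing in each direction in Rh30, and the gene closest in log2 CPM (prior count 2) to each member with a mean of at least 10 counts. Muscle, Ewing sarcoma and epithelial markers are named beside the results they touch. A single listed gene that meets this rule is not reported here.

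Alternatives were DESeq2 1.42.0 (test or size factors), library totals, no filter, all 18 libraries in the fit, other thresholds, each library left out and the replicate letter as a block. A correction for GC content and length (lowess span 0.3, GC known for 98.9% of genes tested in the Rh30 knockdown) was added after the data were seen. Letters were taken as pairs where all 3 correlations of same-lettered deviations from the group means were over 0.1. Over 11426 genes with a mean of at least 100 counts, this held for Rh30 sgDNAJC17 and sgCTL (0.577, 0.287 and 0.348) and for no other comparison. Over all genes tested the same correlations were 0.201, 0.0648 and 0.0921. For other pairs of groups, at a mean of at least 100 counts, single letters ran from -0.547 (ES8 ΔRRM and sgDNAJC17, A) to 0.326 (ES8 sgDNAJC17 and sgCTL, C). The rule therefore does not establish that the letters are pairs.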

Additional observations from a re-analysis of the deposited data

Results flagged for a closer look

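In 9 cases the response of a member differed between the lines by the interaction term of edgeR's quasi-likelihood test, given here as Rh30 minus ES8 on the log2 scale with a Benjamini-Hochberg adjusted p. After the knockdown these were *SOX8* (-1.15, adjusted p = 8.92e-06) and *MYCN* (-0.63, adjusted p = 0.0171), beside 9.78% of the 18899 genes tested. *MYCN* missed the threshold without ES8 control library A (adjusted p = 0.0598). For ΔRRM against sgCTL these were *MYOD1* (-1.55, adjusted p = 0.000152), *MYCN* (-1.05, adjusted p = 1.40e-05), *FOXO1* (-0.95, adjusted p = 1.56e-05), *PIPOX* (-0.47, adjusted p = 0.0367), *FGFR4* (-0.45, adjusted p = 0.000290), *PAX3* (-0.43, adjusted p = 0.00335) and *SOX8* (-0.31, adjusted p = 0.0107). Of the 18854 genes tested, 41.4% passed this interaction in either direction. With the GC content and length correction *FGFR4* (0.02), *SOX8* (0.14) and *PIPOX* (-0.39) did not pass (adjusted p = 0.872, 0.257 and 0.0697). *PIPOX* also missed the threshold without any of 8 of the 12 libraries. Without ES8 ΔRRM library C the *MYOD1* value was -1.0. The 7 genes named for ΔRRM all fell in Rh30 ΔRRM against sgCTL, where 35.0% of the 15442 genes tested fell and 33.8% rose. The interaction used these same libraries. All groups had 3 libraries, too few for a formal test of single libraries against their group. Library C of ES8 ΔRRM was singled out above by its counts of muscle genes, without such a test.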

How the results depend on the processing

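Under other settings that kept all libraries, 507 values kept their direction and side of the threshold. Of the others, 11 no longer passed the threshold, 4 newly passed it and 3 changed sign. These 507 cover 75 results, and for each they include the setting of an adjusted p under 0.01. For these values that setting kept the main fit and the main threshold. They could not change there, so that part of the 507 says nothing about how stable the results are. With a library left out the numbers were 507, 28, 1 and 10 in the same order. With the added GC content and length correction they were 126, 5, 7 and 12. The cause was not tested for any of the changes. With no fold requirement the members called were 6 in Rh30 sgDNAJC17 against sgCTL, 9 in Rh30 ΔRRM against sgCTL, 7 in ΔRRM against sgDNAJC17 and 3 in ES8 sgDNAJC17 against sgCTL. In the same order, all genes called were 4974 of 15391, 10626 of 15442, 9181 of 15309 and 4701 of 17143. With a 2-fold requirement added, the interactions called 1 member for the sgRNA and 3 for ΔRRM, *MYOG* with its group at 0 included, and at an adjusted p under 0.01 that for the sgRNA called 1. All genes called there were 239, 1255 and 586. The GC content and length correction, with or without the block, called 1 member in ΔRRM against sgDNAJC17 and 5 in the ΔRRM interaction, again with *MYOG*. All genes called were 1065 and 6677 with the correction, and 1070 and 6503 with the block as well. Leaving out 1 library gave 1 to 2 members called in the Rh30 knockdown, 0 to 1 in Rh30 ΔRRM against sgCTL and 1 to 2 in the sgRNA interaction. In the same order, all genes called ran from 209 to 342, from 1381 to 1765 and from 1009 to 2515.

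Signs changed with library totals alone for *ALK* between the lines with sgDNAJC17 (-0.02), *FGFR4* in Rh30 ΔRRM against sgDNAJC17 (-0.11) and *MYCN* in the ES8 knockdown (-0.03). With the GC content and length correction, alone and with the block, they changed for *SOX8* in Rh30 ΔRRM against sgCTL (0.02), *MYCN* in the ES8 knockdown (-0.07), *FGFR4* in the sgRNA interaction (0.09), and *FGFR4* (0.02), *ALK* (0.21) and *SOX8* (0.14) in the ΔRRM interaction. With 1 library left out, the ranges that crossed 0 were -0.06 to 0.48 for *ALK* between the lines with sgDNAJC17, -0.02 to 0.00 for *PIPOX* in the Rh30 knockdown, -0.06 to 0.10 for *MYCN* and -0.13 to 0.03 for *SOX8* in the ES8 knockdown, and -0.11 to 0.44 for *MYOD1* in the sgRNA interaction. The *FOXO1* interaction for the sgRNA, -0.40, passed with the correction (adjusted p = 0.0419).

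Genes called over the whole table moved by over 1.5 times as follows. With no fold requirement they went from 9129 to 15690 and from 9401 to 14681 between the lines (sgCTL, sgDNAJC17), from 239 to 4974 in the Rh30 knockdown, from 1540 to 10626 in Rh30 ΔRRM against sgCTL, from 1192 to 9181 against sgDNAJC17, from 334 to 4701 in the ES8 knockdown and from 6 to 30 in ES8 ΔRRM. The Rh30 knockdown gave 155 with DESeq2 and 145 at an adjusted p under 0.01, and the ES8 knockdown 526 with no filter and 176 at 0.01. The correction gave 964 in Rh30 ΔRRM against sgCTL (965 with the block) and 3265 in the sgRNA interaction (3302 with the block), where the main count was 1848, an adjusted p under 0.01 gave 586, a 2-fold requirement 239 and leaving out a library as few as 1009. The ΔRRM interaction went from 7803 to 1255 with a 2-fold requirement. ES8 ΔRRM gave 32 with no filter, 11 with the block and 2 to 16 with a library left out. Where letters were taken as pairs, in the Rh30 knockdown, the block made *MYOD1* pass (adjusted p = 0.000809) and changed no other member's call. Elsewhere letters were taken as only a number, and the block took the *FOXO1* rise in the ES8 knockdown above 0.05 (adjusted p = 0.0717). Levels per length moved by over 1 SD in 35 of 60 cases with library totals alone and in 0 of 180 with a library left out. *ALK* in both lines and *MYOD1* and *PIPOX* in ES8 rest on low counts, which limits their precision.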

Other observations

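The epithelial keratins, which belong to none of the lists of the fusion, were higher in both Rh30 groups with sgDNAJC17. *KRT8* had 41, 39 and 28 counts with sgCTL, 486, 378 and 284 with sgDNAJC17 and 354, 311 and 296 in ΔRRM cells. *KRT18* had 9, 12 and 11 counts, then 154, 144 and 84, then 120, 98 and 97. *KRT19* had 2, 7 and 5 counts, then 98, 40 and 51, then 47, 69 and 29. In each case all Rh30 libraries with sgDNAJC17 lay above all Rh30 sgCTL libraries, and the share of all genes separated in this way is not given. Of 6 epithelial markers 4 were tested in Rh30, and all 4 rose in both comparisons with sgCTL. Beside this, 16.1% of genes rose with sgDNAJC17 and 33.8% in ΔRRM cells. In ES8 sgCTL, sgDNAJC17 and ΔRRM libraries, mean *KRT8* was 11.1, 11.6 and 9.61 CPM and mean *KRT18* 22.7, 23.4 and 30.7 CPM. *KRT19* had at most 12 counts in any ES8 library.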
